A study of Dugesia japonica with 12 samples.

Results

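The genes described here are 100 assembled genes of the planarian Dugesia japonica whose annotation names a cyclin, a cyclin-dependent kinase (CDK), a cell division cycle protein, or a protein of the mitotic spindle, the kinetochore or the condensation and cohesion of chromosomes. They were found by searching 2 annotation texts, the best protein hit and the Swiss-Prot hit, for such names. The search matched 115 of 30535 listed genes, 5 were dropped because their text named DNA replication, minichromosome maintenance or apoptosis, and 10 of the other 110 did not reach 1 TPM in at least 3 of the 12 libraries. TPM is transcript abundance per length, scaled to a fixed total per library.

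Dugesia japonica is a free-living flatworm, and the worms came from the clonal laboratory strain Dj-NH, which reproduces asexually. Whole worms were sequenced as polyadenylated RNA in 4 groups of 3 libraries: unexposed worms (control), and worms after 1, 3 and 5 days in 64 mg per L of the herbicide glyphosate. When the unexposed worms were sampled and how many worms went into a library are not stated in the labels. Nor is it stated that replicates were separate cultures, so the p-values reflect variation among these libraries alone, and that variation may be technical.

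Cyclins are unstable proteins that switch on CDKs at set points of the cell cycle: D-type cyclins with CDK4/6 in G1, and B-type cyclins with CDK1 at entry into mitosis. Aurora kinases and checkpoint proteins such as BUB3 then act on the spindle and kinetochores, and the anaphase-promoting complex (APC/C) marks cyclin B and securin for destruction so that the chromosomes separate. In planarians the dividing cells of the adult body are the neoblasts, the stem cells that supply the other cell types. Many proteins with CDK or cyclin in their name also or only do other work. CDK7, CDK8, CDK9, CDK11, CDK12 and CDK13 with cyclins C, H, K, L and T act in transcription, and CDK5 acts in neurons.

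The 100 genes comprised 30 with CDK names (regulators and CDK-like kinases included), 17 with cyclin names, 11 named for APC/C subunits, 7 cohesin or condensin subunits, 6 aurora-type kinases, 15 named for the spindle, kinetochore or centromere, 2 for CDC42, 1 for CDC48 and 11 for other CDC proteins. A protein kinase domain was annotated in 41 of them and a cyclin domain in 11. Best hits were to a flatworm protein for 48. The label covers more than cell division: 35 genes named a protein with a role in the cell cycle itself, 16 a transcriptional CDK, cyclin or splicing partner, 17 another CDK or cyclin such as CDK5, cyclin G or cyclin Y, 17 were kinases whose annotation texts named different kinase families or gave only a yeast CDC15 or IPL1-type name, and 15 named another kind of protein, such as sideroflexin, the Hsp90 partner CDC37 or the iron-sulfur assembly protein MIP18. These classes were made by reading the annotation after the values had been seen, so they carry no test. KEGG placed 20 of the genes in its cell cycle map, out of 78 with any KEGG pathway.

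Most of these transcripts were low. Their median of mean TPM over the 12 libraries was 3.39, against 2.18 for all 27329 genes that passed the same level filter, and 41 had a mean of at least 5 TPM. The assembled lengths ran from 208 to 3432 bases, with a median of 1134.5 against 488 for all tested genes, and 10 were under 300 bases. In all 12 libraries 75 genes reached 1 TPM, while 5 reached it in exactly 3. The genes just inside the filter were short pieces named ANAPC10, ANAPC5, SMC2, mei-2 and CDK16, whose third-highest values lay between 1.05 and 1.52 TPM. Just outside it, 8 matching genes reached 1 TPM in 2 libraries only, with third-highest values between 0.67 and 0.95 TPM, among them texts for SMC4, an aurora kinase and a CDK4 inhibitor.

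TPM keeps no sequencing depth, so the depth of each library is unknown and no counting interval is given. Libraries summed to between 978610 and 986584 TPM over the listed genes, and between 18888 and 23602 genes reached 1 TPM. Control replicate 1 and day 3 replicate 2 stood apart, with median TPM over tested genes of 3.01 and 2.99, and day 1 replicate 2 followed with 2.75, while the other 9 libraries lay between 1.81 and 2.33. Since control replicate 1 is one of only 3 controls, the values of the genes and sums below that it moves most are given with and without it. All fold changes below are differences of log2(TPM + 1), a scale that understates the change of low genes, and each p-value is from limma fitted to the whole table with Benjamini-Hochberg adjustment over the 27329 tested genes at a threshold of 0.05.

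At the gene level, 4 of the 100 genes passed the threshold in a comparison with control: a CDK regulatory subunit (CKS) and the APC/C subunit ANAPC11 fell, and a kinase with unc-51 and CDC15 hits and a short CDK17 transcript rose. None of the named cyclins, of the CDK1 and CDK4/6 transcripts or of the aurora kinases passed it. At day 1 limma called none of the 100, beside 0.132% of all tested genes (0.0842% higher and 0.0476% lower). At an unadjusted p under 0.05, 1 was above and 7 below control at day 1, beside 4.03% and 4.8% of all tested genes. At day 3 limma called 4 of the 100, 2 higher and 2 lower, beside 1.62% of all tested genes (0.428% higher and 1.19% lower), and at an unadjusted p under 0.05 there were 2 above and 6 below (4.91% and 9.58%). At day 5 it called 2, both lower, beside 2.91% (0.681% higher and 2.23% lower), and at an unadjusted p under 0.05 there were 3 above and 17 below (5.1% and 11.4%). The F test over the 4 groups called the same 4 genes as day 3, beside 1.84%. With counts this small, neither day is read as a property of the whole set.

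CKS, a small protein that docks on CDK1 and CDK2 and helps them phosphorylate their substrates, was found as TRINITY_DN12668_c0_g1 (398 bases, with a CKS domain annotated). Its level in the 3 control libraries was 13.1, 17.7 and 13.0 TPM, and it was 6.55, 10.1 and 8.68 TPM at day 1, 7.47, 6.36 and 6.16 TPM at day 3, and 5.33, 6.22 and 6.53 TPM at day 5. Every exposed library was below every control library. It fell by 1.02 on the log2 scale at day 3 (SE 0.22, adjusted p = 0.0251, limma) and by 1.14 at day 5 (SE 0.22, adjusted p = 0.00961). At day 1 the log2 fold change was -0.73 and the adjusted p was 0.297 (limma). The day 5 call was lost when day 5 replicate 1 was left out (adjusted p = 0.0552, limma). The day 3 call was lost without control replicate 1, 2 or 3 (adjusted p = 0.0617, 0.0971 and 0.0560) or without day 3 replicate 2 or 3 (0.0521 and 0.0847), with log2 fold changes between -0.88 and -1.09, and with library totals taken without the top 2 transcripts (adjusted p = 0.0683). In RNA from whole worms, fewer cells that express a gene and less of its RNA per cell cannot be told apart, and this holds for each result here.

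A second CKS transcript, TRINITY_DN40075_c0_g1 (233 bases), was lower still. Its control values were 3.84, 0.55 and 1.73 TPM and its day 1 values 1.38, 2.82 and 2.28 TPM. At day 3 it was listed at 0.25, 0 and 0.30 TPM and at day 5 at 0.73, 0 and 0 TPM. The day 3 libraries lay below all controls, and the day 5 libraries overlapped the controls through control replicate 2. Neither comparison passed the threshold (log2 fold changes of -1.22 and -1.19, adjusted p = 0.174 and 0.149, limma). They were -0.81 and -0.78 when control replicate 1 was left out. This transcript was chosen for mention after its values were seen.

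ANAPC11, the RING subunit that together with ANAPC2 forms the catalytic core of the APC/C, was found as TRINITY_DN12143_c0_g1 (246 bases, with an ANAPC11 zinc finger annotated). Its best hit was to Diaphorina citri and its Swiss-Prot hit to Arabidopsis thaliana, so it was classed by its hits as plant. Whether this short transcript is planarian was not tested. It was the most abundant of the 35 cell-cycle transcripts next to MZT1. The controls read 62.5, 51.4 and 43.9 TPM, day 1 read 44.7, 41.3 and 38.4, day 3 read 30.8, 22.1 and 29.8, and day 5 read 26.1, 27.02 and 31.6 TPM. The day 3 and day 5 libraries lay below every control and every day 1 library, while day 1 and control overlapped. The mean went from 52.6 ± 9.37 TPM in control (SD, n = 3) to 27.5 ± 4.77 at day 3 and 28.2 ± 2.93 at day 5. ANAPC11 fell by 0.91 on the log2 scale at day 3 (SE 0.19, adjusted p = 0.0266, limma) and by 0.86 at day 5 (SE 0.19, adjusted p = 0.0249, limma).

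The calls of ANAPC11 depended on the scaling and on single libraries. Under quantile normalization and median-ratio scaling the log2 fold changes were -0.78 and -0.81 at day 3 and -0.70 and -0.73 at day 5, with adjusted p between 0.0661 and 0.111 (limma), and with library totals taken without the top 2 transcripts the adjusted p was 0.0544 and 0.0568. Without control replicate 1 they were -0.78 at day 3 (adjusted p = 0.125) and -0.74 at day 5 (adjusted p = 0.120). The calls were also lost without control replicate 2 (adjusted p = 0.0620 and 0.0565), the day 3 call without day 3 replicate 2 or 3 (0.0644 and 0.0584), and the day 5 call without day 5 replicate 1, 2 or 3 (0.112, 0.0921 and 0.0573). The direction was the same in every alternative run for both times.

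The other APC/C subunits carried no call. The larger transcripts, ANAPC1, ANAPC2, CDC16 and the ANAPC3 transcript TRINITY_DN32345_c0_g1, had day 5 log2 fold changes of -0.35, -0.25, -0.51 and -0.30, with adjusted p from 0.381 to 0.735 (limma). Without control replicate 1 these were -0.12, 0.01, -0.34 and 0.06, so the sign of ANAPC2 and of this ANAPC3 transcript rested on that library. ANAPC10, which helps the complex hold its substrates, stood at 4.58, 4.47 and 3.62 TPM in control and at 2.42, 2.35 and 3.11 TPM at day 5, with no overlap (log2 fold change -0.53, adjusted p = 0.284, limma). A second ANAPC3 transcript, TRINITY_DN36295_c1_g8, was at 0.14 at day 5. Both transcripts with an ANAPC4 text carried sideroflexin as their Swiss-Prot hit and a sideroflexin-type domain, so they are not read as APC/C subunits. Of the other 9 genes with an APC/C name, 8 had a day 5 log2 fold change below 0, against 58.2% of all tested genes. Short pieces of ANAPC5 and ANAPC10, with mean TPM of 0.71 and 0.65, were among the 8. Without control replicate 1 these pieces were at 0.14 and 0.005. ANAPC11, ANAPC1, CDC16 and the longer ANAPC10 transcript stayed below 0 without that library.

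**Figure D1:**
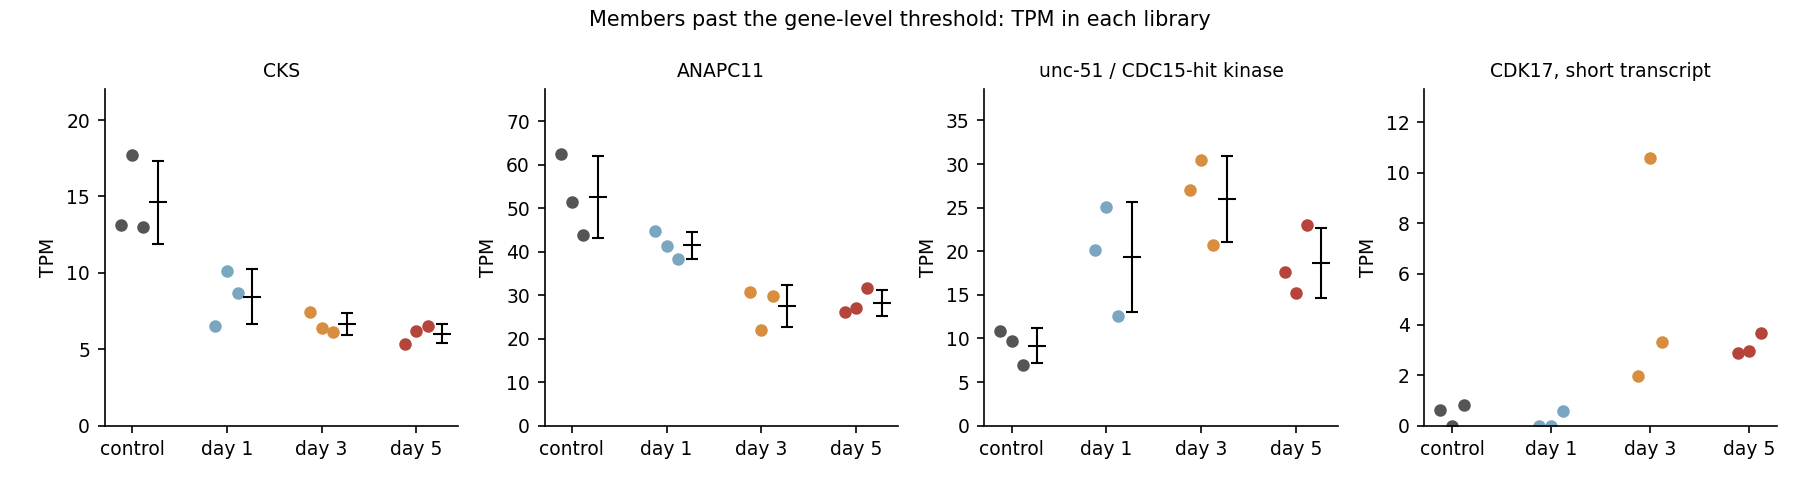
TPM (y axis, linear, from 0) of the 4 genes past the threshold in each library of the control, day 1, day 3 and day 5 groups (points in the order of replicates 1 to 3). Black bars give the mean and SD of the 3 libraries, and none is drawn for the short CDK17 transcript, which is listed at 0 in 3 libraries. CKS and ANAPC11 lie lower at days 3 and 5 than in every control, and the other 2 genes lie higher.

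Both genes that rose have kinase names. TRINITY_DN35609_c0_g1 (859 bases, a protein kinase domain) has the autophagy kinase unc-51 as its annotation hit and the yeast kinase CDC15, which acts in exit from mitosis in that organism, as its Swiss-Prot hit. Controls read 10.9, 9.68 and 6.98 TPM, day 1 read 20.2, 25.1 and 12.6, day 3 read 27.01, 30.4 and 20.7, and day 5 read 17.7, 15.2 and 23.1 TPM, so each exposed library was above each control. It rose by 1.41 on the log2 scale at day 3 (SE 0.26, adjusted p = 0.0116, limma), and this call was lost without control replicate 3 (1.25, adjusted p = 0.0560). The call was also lost with control replicate 1 and day 3 replicate 2 both left out (1.42, adjusted p = 0.0828, limma). At day 5 the log2 fold change was 0.95 with an adjusted p of 0.0631 (limma), which passed under quantile normalization (1.11, adjusted p = 0.00941) and median-ratio scaling (1.08, adjusted p = 0.0132), and also without day 1 replicate 3 (adjusted p = 0.0454). At day 1 it was 0.97 (adjusted p = 0.243, limma). The other gene of its assembly cluster, TRINITY_DN35609_c0_g2 with PLK3 and CDC15 hits, differed from control by 0.00 at day 3 and -0.39 at day 5. Whether reads shared by the pair were divided between them in the authors' quantification was not tested.

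TRINITY_DN4460_c0_g1 (322 bases) has CDK17, a kinase of the PCTAIRE group, as both hits. It was listed at 0.63, 0 and 0.81 TPM in control and at 0, 0 and 0.59 TPM at day 1, then at 1.95, 10.6 and 3.31 TPM at day 3 and at 2.86, 2.96 and 3.67 TPM at day 5. All day 3 and day 5 libraries were above all control and day 1 libraries, and the highest value was that of day 3 replicate 2. It reached 1 TPM only in day 3 and day 5 libraries, so it passed the level filter through the groups where it is high. Its lack of overlap is therefore not separate support for the rise. It rose by 1.88 at day 3 (SE 0.42, adjusted p = 0.0360, limma), a value that was 1.31 without day 3 replicate 2 (adjusted p = 0.0966). This call was also lost without control replicate 1, 2 or 3 (adjusted p = 0.0879, 0.115 and 0.0622), day 3 replicate 3 (0.0718) or day 5 replicate 1, 2 or 3 (0.0511, 0.0553 and 0.0507). It was lost too with a replicate block (adjusted p = 0.0511), a pseudocount of 0.1 (0.103) and only the libraries compared (0.122). At day 5 the value was 1.53 with an adjusted p of 0.0657 (limma), which passed without day 3 replicate 1 or 2 (adjusted p = 0.0452 and 0.0192). The 2 long CDK17 transcripts, TRINITY_DN29599_c0_g1 (2690 bases) and TRINITY_DN33477_c1_g1 (1825 bases), stayed uncalled with log2 fold changes of 0.12 and 0.14 at day 3.

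Cyclins of the cell cycle were low and had log2 fold changes below 0 at days 3 and 5, without a call. Cyclin B3 (TRINITY_DN29490_c0_g1), a mitotic B-type cyclin, read 3.95, 2.94 and 3.14 TPM in control, 2.50, 2.78 and 2.17 at day 1, 1.67, 2.41 and 1.89 at day 3, and 1.69, 1.45 and 1.74 TPM at day 5. No exposed library reached the lowest control. The log2 fold changes were -0.32, -0.54 and -0.72, and the day 5 value had an adjusted p of 0.113 (limma). This p was 0.0392 under quantile normalization, 0.0401 under median-ratio scaling and 0.0493 when only genes with a flatworm hit were tested.

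Cyclin B-1 (TRINITY_DN36591_c1_g1), the partner of CDK1, read 7.02, 3.51 and 4.75 TPM in control and 2.19, 3.25 and 2.68 TPM at day 5. These groups did not overlap, and the day 3 libraries, at 3.12, 4.47 and 2.83 TPM, overlapped with control. The day 5 log2 fold change was -0.69 (SE 0.26, adjusted p = 0.191, limma). Cyclin D (TRINITY_DN32519_c1_g2), the G1 cyclin, read 4.56, 3.25 and 3.23 TPM in control, 2.38, 2.49 and 2.38 at day 1, 2.31, 3.35 and 2.16 at day 3, and 1.40, 2.03 and 2.18 TPM at day 5. Day 1 and day 5 lay wholly below control, and day 3 did not because of replicate 2. The log2 fold change at day 5 was -0.70 (SE 0.24, adjusted p = 0.139, limma). Without control replicate 1 the day 5 values were -0.62 for cyclin B3, -0.47 for cyclin B-1 and -0.57 for cyclin D.

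CDK1, the kinase of mitotic entry, was represented by TRINITY_DN39522_c1_g9 and TRINITY_DN37258_c1_g3. The first read 4.51, 3.04 and 4.13 TPM in control and 1.51, 2.61 and 2.36 TPM at day 5. The second read 3.38, 2.10 and 2.14 TPM in control, 1.19, 1.09 and 1.45 at day 1, and between 1.03 and 1.26 TPM at day 5. Neither overlapped with control at day 5, and the second did not at day 1 either. Their day 5 log2 fold changes were -0.64 (adjusted p = 0.226) and -0.73 (adjusted p = 0.186, limma). CDK4/6 (TRINITY_DN38705_c2_g2), the partner of cyclin D, read 3.82, 2.64 and 2.37 TPM in control and 1.21, 1.75 and 1.71 TPM at day 5, again with no overlap (-0.61, adjusted p = 0.282, limma). These values were -0.54, -0.57 and -0.46 without control replicate 1. In day 3 replicate 2 all 3 genes were at or above the lowest control. CDK2AP1, a protein named for its binding to CDK2, lay between 19.9 and 28.4 TPM in all libraries, with a day 5 log2 fold change of -0.06.

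Among the mitotic kinases, 3 transcripts had a flatworm aurora kinase as best hit. TRINITY_DN33223_c5_g1, the most abundant, read 26.4, 20.8 and 18.1 TPM in control and 13.6, 14.4 and 18.7 TPM at day 5, and the groups overlapped. TRINITY_DN33154_c0_g1 read 11.8, 7.39 and 7.40 TPM in control and 5.02, 5.10 and 5.78 TPM at day 5, with no overlap. TRINITY_DN35651_c1_g2 read 6.44, 4.50 and 4.79 TPM in control and 1.73, 4.0 and 2.71 TPM at day 5, also with no overlap. The day 5 log2 fold changes were -0.46, -0.62 and -0.74 in that order (adjusted p = 0.339, 0.204 and 0.192, limma), and -0.31, -0.42 and -0.61 without control replicate 1. CDC25 (TRINITY_DN30160_c0_g1), the phosphatase that activates CDK1, was at -0.31 at day 5 and -0.03 at day 3, with its highest value, 11.03 TPM, in day 3 replicate 2. It was at -0.03 and 0.25 without control replicate 1.

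**Figure D2:**
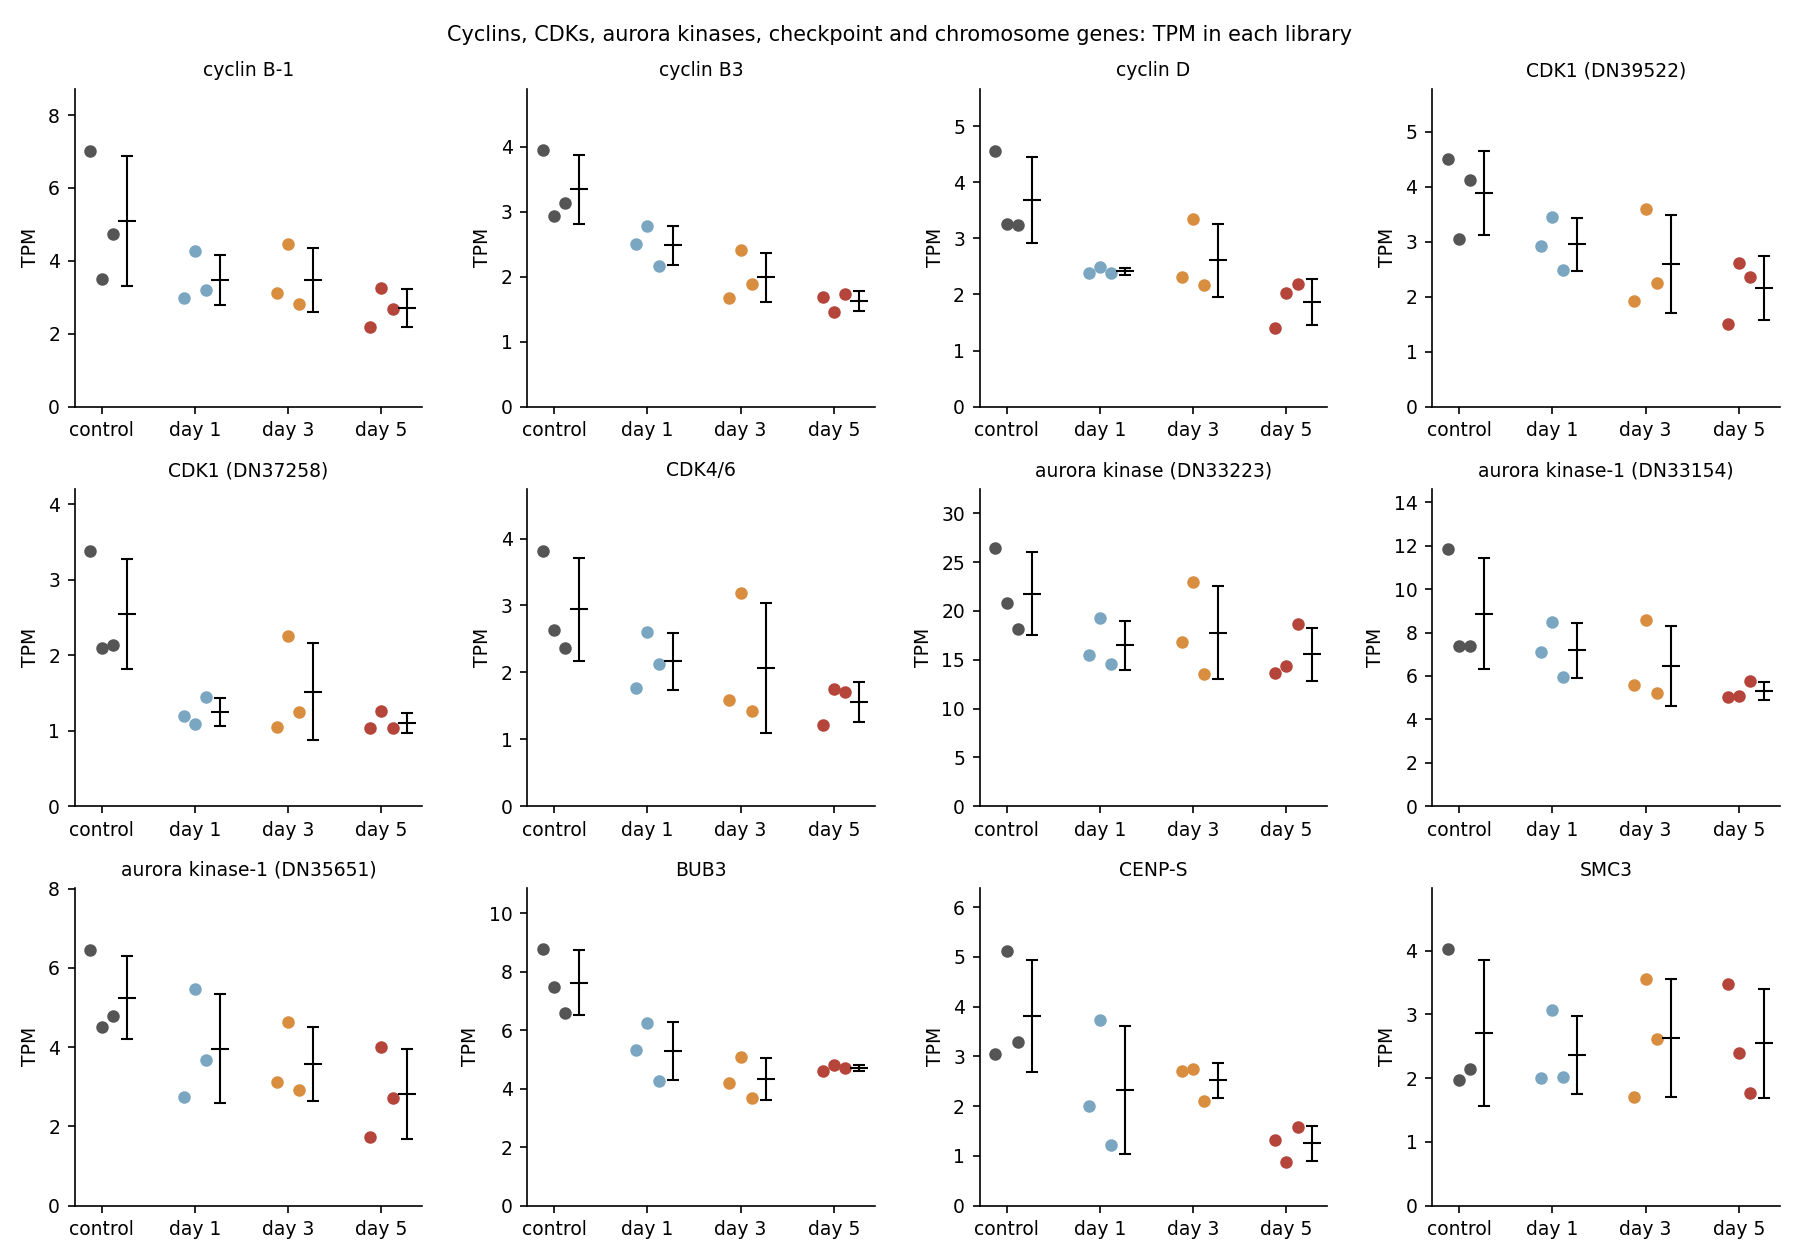
TPM (y axis, linear, from 0) of 12 cell-cycle genes in each library of the control, day 1, day 3 and day 5 groups (points in the order of replicates 1 to 3), with the mean and SD of each group in black. Control replicate 1 is the highest control in 11 of the 12 panels; CENP-S is the exception.

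Of the 15 genes named for the spindle, kinetochore or centromere, 8 had a day 5 log2 fold change below 0, with a median of -0.19, and none was called; 58.2% of all tested genes were below 0. BUB3 (TRINITY_DN38887_c1_g1), which holds back the APC/C until all chromosomes are attached, read 8.80, 7.49 and 6.61 TPM in control, 5.32, 6.26 and 4.27 at day 1, 4.21, 5.10 and 3.70 at day 3, and 4.61, 4.80 and 4.71 TPM at day 5. No exposed library overlapped with control. The log2 fold changes were -0.46, -0.69 and -0.59 (adjusted p = 0.557, 0.128 and 0.169, limma), and the day 3 value passed under quantile normalization (adjusted p = 0.0278) and median-ratio scaling (0.0285). The day 3 and day 5 values were -0.60 and -0.49 without control replicate 1. CENP-S (TRINITY_DN39368_c0_g10), a histone-fold protein of the centromere, read 3.05, 5.11 and 3.30 TPM in control and 1.31, 0.88 and 1.58 TPM at day 5. Its day 5 log2 fold change of -1.08 (SE 0.30, adjusted p = 0.0628, limma) was the lowest of the uncalled cell-cycle genes after the second CKS transcript. CENP-S was chosen for mention after its values were seen.

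MZT1, which recruits gamma-tubulin complexes to spindle poles, took another course. It read 38.5, 44.4 and 34.1 TPM in control, 56.1, 52.9 and 40.6 at day 1, 39.7, 31.0 and 28.1 at day 3, and 31.4, 26.4 and 34.4 TPM at day 5. Its log2 fold change was 0.34 at day 1 and -0.33 at day 5 (adjusted p = 0.658 and 0.447, limma), and all groups overlapped with control. ZW10, a kinetochore protein, was at -0.22 at day 5, and at -0.05 without control replicate 1.

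Cohesin and condensin subunits, which hold sister chromatids together and compact chromosomes, were nearer to control. The SMC3 transcript was at -0.05 and SMC1A at -0.43 at day 5, and the cohesin subunit SA was at 0.13. For condensin, NCAPG was at -0.19 and the longer SMC2 transcript at -0.26. NCAPH was at -0.61, with 6.84, 8.65 and 11.6 TPM in control and 2.75, 5.18 and 10.7 TPM at day 5, which overlapped. None of the 7 was called and none was without overlap at any time, which in a group this small is near the background of 2.91% called and 15.6% lower without overlap at day 5. Without control replicate 1, SMC3, SMC1A, NCAPG and the longer SMC2 transcript were at 0.19, -0.17, 0.08 and -0.03 at day 5. CDC6 and CDC45, which load and activate the replicative helicase, were at -0.61 and -0.55 at day 5 (adjusted p = 0.302 and 0.403, limma), and at -0.45 and -0.37 without control replicate 1.

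At day 5 the log2 fold change was below 0 for 33 of the 35 cell-cycle genes, against 58.2% of all tested genes, and 15 had all 3 day 5 libraries below all 3 controls, against 15.6% of all tested genes. Their median log2 fold change was -0.31 at day 1, -0.34 at day 3 and -0.51 at day 5, and the medians over all tested genes were -0.08, -0.06 and -0.09. At day 1 and day 3 the values were below 0 for 30 and 29 of the 35, where 57.9% and 55.3% of all tested genes were, and the groups did not overlap, with exposed worms lower, for 6 and 7, against 7.71% and 10.5%. Of the 11901 tested genes with any hit, 67.8%, 56.5% and 61.8% were below 0 at days 1, 3 and 5. Lower without overlap were 1143, 1414 and 2439 of the 11901. The figures for the 35 genes describe the group and were not tested. All 3 comparisons use the same 3 controls.

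**Figure D3:**
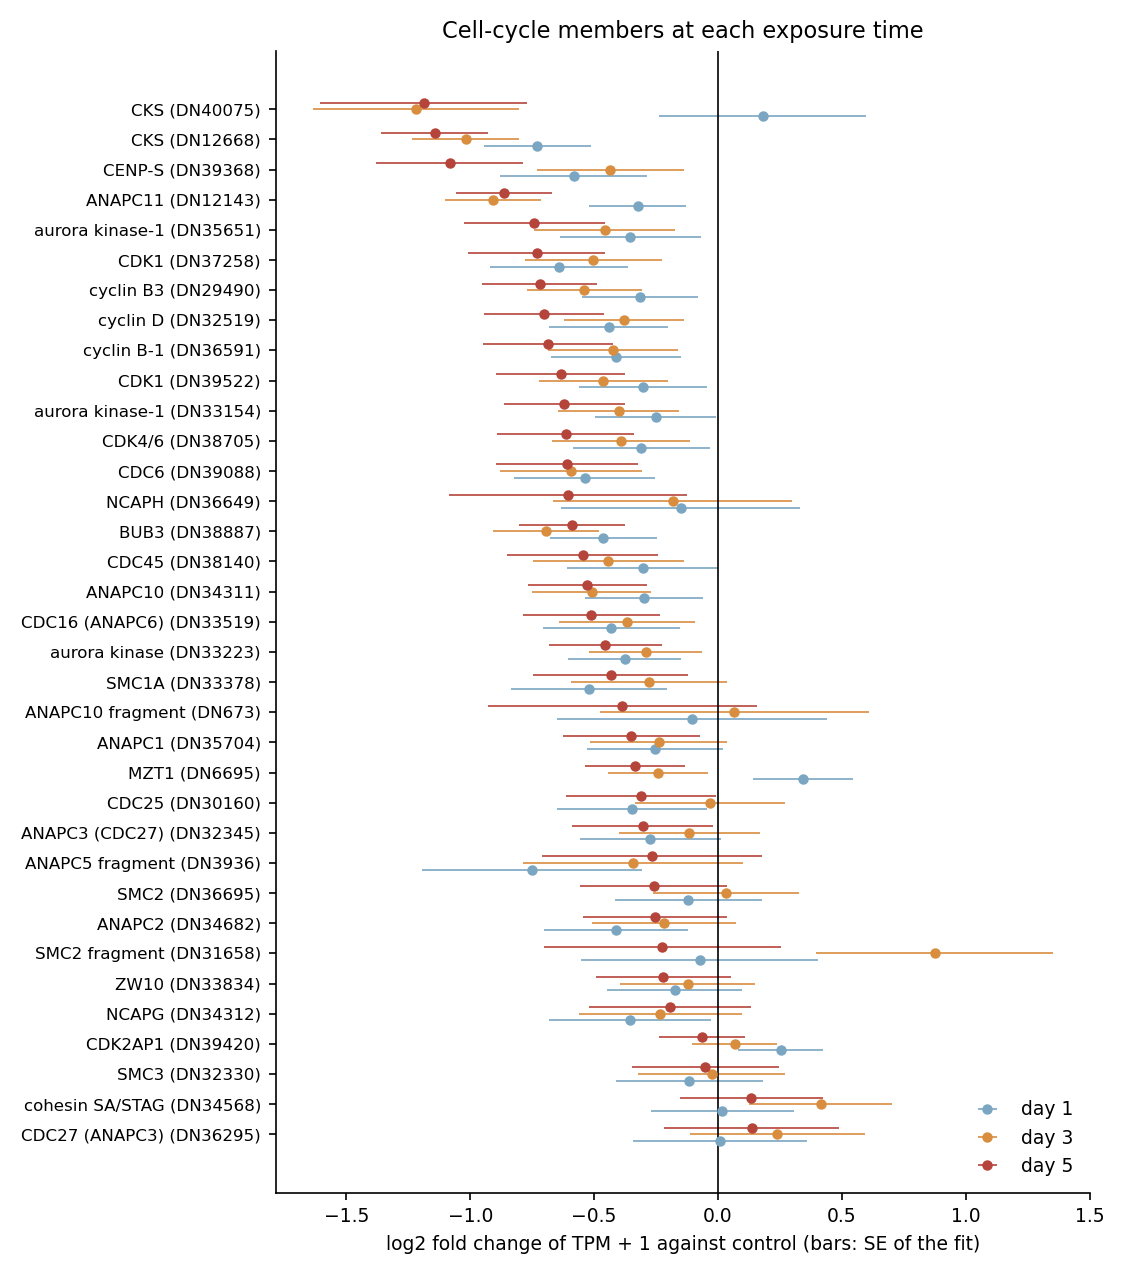
Log2 fold change of TPM + 1 against control (x axis) for each of the 35 cell-cycle genes (y axis, short name and assembly number) at day 1, day 3 and day 5; bars are the SE of the fit. At day 5, 33 of the 35 points lie below 0, and CKS and ANAPC11 are the 2 called genes.

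The size of this displacement depended on control replicate 1. Without that library the cell-cycle medians were -0.16 at day 1, -0.20 at day 3 and -0.35 at day 5, with 25, 22 and 27 of the 35 below 0, while the medians of all tested genes were 0.02, 0.04 and 0.02. Without day 3 replicate 3 the day 3 median was -0.20, and without day 3 replicate 2 it was -0.49. Leaving out each library in turn gave day 5 medians between -0.60 and -0.35. Under median-ratio scaling, which set the day 5 median of all genes at 0.00, the cell-cycle median was -0.39 with 31 below 0. Among the 20 cell-cycle genes with a flatworm hit it was -0.58, against -0.12 for all flatworm-hit genes.

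The summed TPM of the 35 genes showed the same order. It was 314, 250 and 234 TPM in control, 224, 263 and 203 at day 1, 196, 232 and 171 at day 3, and 168, 171 and 186 at day 5. Day 3 and day 5 lay below all controls, and day 1 overlapped with them. Control replicate 1 was the highest, and the lowest control, 234 TPM, stood just above day 3 replicate 2. Without ANAPC11, the sum ranged from 191 to 251 TPM in control, from 141 to 210 at day 3 and from 142 to 155 at day 5, so that only day 5 stayed apart from control. As a share of the summed TPM of all 100 genes, which does not depend on the scale of a library, they made up 26.4% ± 0.87 in control (SD, n = 3), 26.7% ± 0.20 at day 1, 22.9% ± 3.21 at day 3 and 21.5% ± 0.87 at day 5. The day 5 shares of 20.9%, 21.2% and 22.5% lay below every control and day 1 share. The lowest share of all, 19.2% in day 3 replicate 2, came in the library where a CDC42 transcript alone held 162 TPM.

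**Figure D4:**
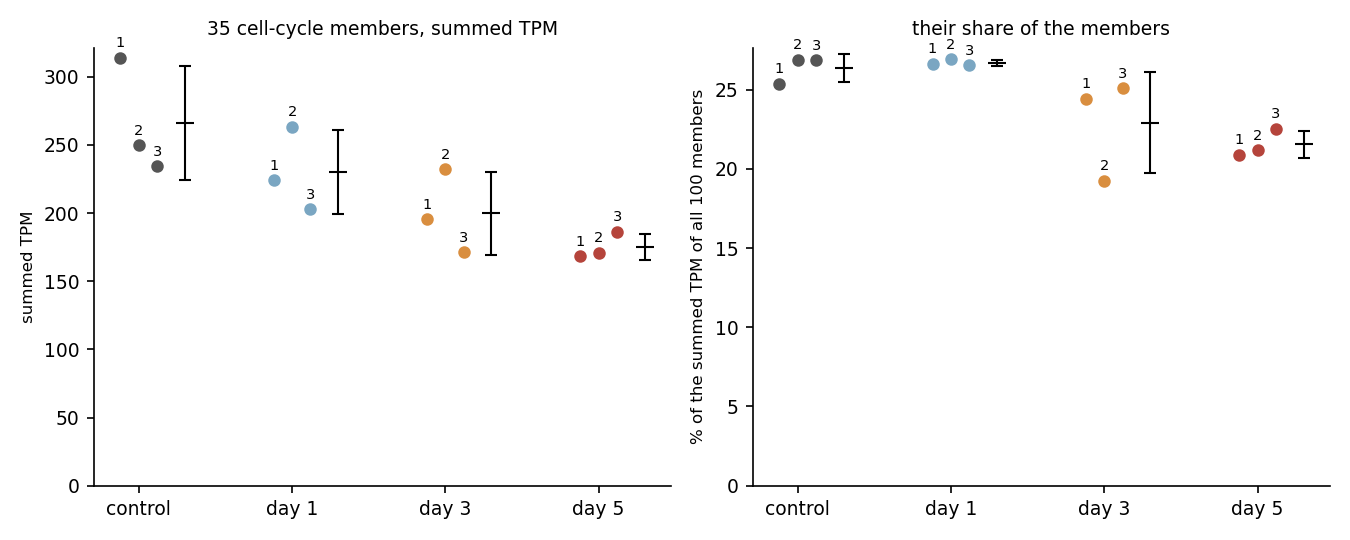
Left, summed TPM of the 35 cell-cycle genes in each library (numbers are replicates); right, the same sum as a percentage of the summed TPM of all 100 genes. Black bars are group means and SD of 3 libraries, and both axes start at 0; the day 5 libraries are below all controls in both.

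The 16 genes of transcriptional CDKs, cyclins and their partners had medians of -0.18, -0.18 and -0.27 at days 1, 3 and 5. At day 5, 15 of the 16 were below 0, against 58.2% of all tested genes, and 5 were lower without overlap, against 15.6%. Of the 11901 tested genes with any hit, 61.8% were below 0 and 2439 were lower without overlap. The summed TPM of this class was 140 in control replicate 1, 99.6 and 102 in the other controls, and 87.4 to 97.6 at day 5. The class median was not recomputed without control replicate 1. None was called, where 2.91% of all tested genes were. The difference between this class and the cell-cycle class was not tested. Cyclin K, which partners CDK12 and CDK13, was level at 23.1, 21.5 and 19.7 TPM in control and 19.9, 21.5 and 19.8 TPM at day 5 (log2 fold change -0.07). CDK8/19, the kinase of the Mediator module, was at 0.08 at day 5. Cyclin L1, a cyclin of splicing, was the lowest of them at 24.4, 15.9 and 18.2 TPM in control and 12.4, 13.5 and 10.7 TPM at day 5, without overlap (-0.62, adjusted p = 0.343, limma). Their share of the summed TPM of the 100 genes was 11.3% ± 0.51 in control and 11.3% ± 0.77 at day 5 (SD, n = 3).

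The 17 other CDKs and cyclins had medians of -0.13, -0.04 and -0.06. Cyclin G (TRINITY_DN31871_c0_g1), the most abundant cyclin of the set, was at 26.2, 19.6 and 21.9 TPM in control and 18.3, 23.4 and 22.8 TPM at day 5, a log2 fold change of -0.06. Cyclin Y (TRINITY_DN36465_c1_g2) was at 0.07 and CDK10 at 0.02 at day 5. CDK5, the neuronal kinase, read 12.4, 10.5 and 9.22 TPM in control and 7.75, 9.19 and 8.42 TPM at day 5, just without overlap (-0.30, adjusted p = 0.474, limma).

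The 17 kinases with mixed hits had medians of -0.08, 0.08 and -0.12. At day 3, 13 of them were above 0, where 12204 of all 27329 tested genes were. Their summed TPM was 231 in day 3 replicate 2, and 141 and 111 in day 3 replicates 1 and 3. The kinase with CDK2 and NEK8 hits (TRINITY_DN39442_c0_g1) read 72.0, 16.4 and 36.9 TPM in control and 12.1, 17.4 and 12.5 TPM at day 1 (log2 fold change -1.29, adjusted p = 0.337, limma), and its day 1 call appeared only when control replicate 2 was left out. Its log2 fold changes were -0.66 at day 3 and -0.46 at day 5. Over the alternatives they ranged from -1.20 to -0.16 at day 3 and from -0.99 to 0.04 at day 5. An IPL1-hit kinase (TRINITY_DN39389_c0_g1) reached 39.3 TPM in day 3 replicate 2, with the other 2 day 3 libraries at 16.4 and 13.3 TPM.

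Of the 15 other proteins, the small GTPase CDC42, an organiser of cell polarity, was among the most abundant genes of the set. TRINITY_DN38605_c0_g1 read 73.4, 59.3 and 57.5 TPM in control and 63.8, 53.1 and 55.7 TPM at day 5 (log2 fold change -0.13). The shorter TRINITY_DN36508_c1_g3 (315 bases) was listed at 162 TPM in day 3 replicate 2 and at 0 in day 3 replicate 3, with 53.2 to 140 TPM in the libraries of the other groups. Its assembly cluster holds 5 listed genes, and no group value is given for it. CDC37, MIP18 and the calcyclin-binding protein had day 5 log2 fold changes of 0.16, -0.22 and 0.01.

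**Figure D5:**
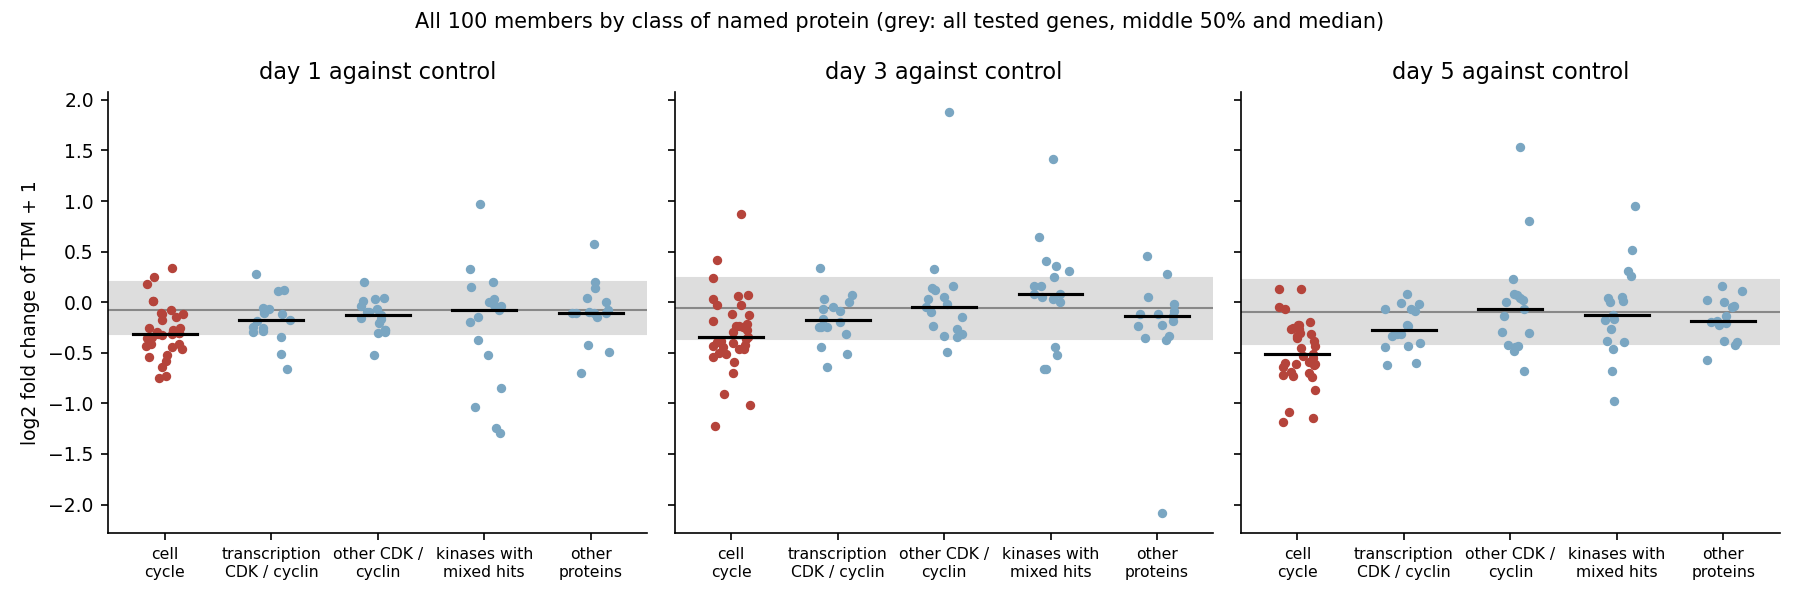
Log2 fold change of TPM + 1 against control (y axis) of all 100 genes at day 1, day 3 and day 5, by class of named protein (x axis; cell-cycle genes in red). Black lines are class medians, the grey line is the median of all tested genes and the grey band the middle 50% of single genes. The cell-cycle medians are -0.31, -0.34 and -0.51, and the grey medians -0.08, -0.06 and -0.09.

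Over all 100 genes the median log2 fold change was -0.17 at day 1, -0.17 at day 3 and -0.27 at day 5, with 77, 67 and 78 genes below 0. Without control replicate 1 these medians were -0.03, 0.00 and -0.10, so the day 3 median no longer had a direction. The day 3 median became -0.33 when day 3 replicate 2 was left out, -0.04 when day 3 replicate 3 was, and -0.26 when control replicate 3 was. The day 1 median became -0.29 on leaving out control replicate 2 or day 1 replicate 2, and -0.26 on leaving out control replicate 3. Among the 100, 11, 9 and 26 genes were lower without overlap at days 1, 3 and 5, where 7.71%, 10.5% and 15.6% of all tested genes were. Those higher without overlap numbered 2, 4 and 3, where 5.65%, 5.66% and 7.7% of all tested genes were. All 100 genes have an annotation hit, which only 11901 of the tested genes have. Lower without overlap were 1143, 1414 and 2439 of those 11901 at days 1, 3 and 5, and 67.8%, 56.5% and 61.8% were below 0. The all-gene shares are thus a lower bar than the shares of genes with a hit.

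Between exposure times, limma called none of the 100 genes. For day 3 against day 1 0.179% of all tested genes were called (0.0439% higher and 0.135% lower), and of the 100 genes 2 were higher and 3 lower at an unadjusted p under 0.05, beside 2.71% and 5.95% of all tested genes. The short CDK17 transcript had the smallest p, with a log2 fold change of 2.18 (SE 0.42, adjusted p = 0.0566, limma). For day 5 against day 1, 0.49% were called (0.0988% higher and 0.392% lower), 2 of the 100 genes were higher and 4 lower at an unadjusted p under 0.05 (background 3.37% and 6.85%), and the same transcript was at 1.83 (adjusted p = 0.0803, limma). For day 5 against day 3, 0.0% were called, with 1 gene higher and 2 lower at an unadjusted p under 0.05 (background 1.36% and 1.72%).

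Genes outside the set from related lists are read against the shares of all tested genes called, 0.428% higher and 1.19% lower at day 3 and 0.681% higher and 2.23% lower at day 5. Of 41 tested genes of DNA replication and nucleotide synthesis, 5 fell at day 3 and 6 fell at day 5 and none rose, with a day 5 median of -0.62 and 36 below 0. The largest of the called falls at day 5 were those of the ribonucleotide reductase M2 transcripts TRINITY_DN35213_c3_g1 and TRINITY_DN33815_c0_g1. Their log2 fold changes were -1.53 and -1.80 (adjusted p = 0.00036 and 0.00022, limma). The clamp PCNA fell by 0.98 at day 5 and the helicase subunit MCM4 by 1.15 (adjusted p = 0.0146 and 0.0110, limma). None of 33 further mitosis genes was called at any time in limma (day 5 median -0.21, 24 below 0). Of 22 genes of G1 and the DNA damage checkpoint, 1 fell at day 5, a Chk2 transcript at -0.94 (adjusted p = 0.0239, limma).

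Markers of cell types were set beside these values. Of 24 tested neoblast genes, 1 fell at day 3 and at day 5, a helicase of the vasa group named DjVLGA. The summed level of the list was 541 to 782 TPM in control, 421 to 724 at day 3 and 413 to 469 at day 5. The day 5 sums did not overlap with control, and 18 of the 24 genes were below 0 at day 5, with a median of -0.38. Of 56 genes matched by gut names, 7 rose and 1 fell at day 5, beside 0.681% and 2.23% of all tested genes. The one that fell has a cattle apolipoprotein as its hit, and among those that rose 1 was classed by its hits as ciliate and 1 as plant, so not all need be planarian gut genes. The sum of this list was 3041 to 5122 TPM in control and 6329 to 7821 at day 5, and 1 transcript with a trypsin-inhibitor hit, TRINITY_DN35483_c0_g5, went from a mean of 804 to 1929 TPM in it. None of 31 neuron, 21 muscle or 62 cilia genes was called at day 5. The cilia sum was 420 to 621 TPM in control and 313 to 409 at day 5, without overlap, with 48 of the 62 below 0 and a median of -0.22. For muscle, 17 of 21 were below 0 with a median of -0.22, and for neurons 17 of 31 with a median of -0.05. Of all tested genes 58.2% were below 0 at day 5, and of those with any hit 61.8%. Control replicate 1 was the highest control for the neoblast, cilia and muscle sums. The muscle sum was 1272 TPM in it, 644 and 834 in the other controls, and 609 to 912 at day 5. These lists were not recomputed without that library. The part of these cell types in the values of the cell-cycle genes was not tested.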

How the data were processed

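Polyadenylated RNA of whole worms was measured in 12 libraries, grouped by their labels. Salmon, edgeR, cutadapt and FastQC are named per the submitters' processing notes, without roles, and neither versions nor settings were given in sources used here. The authors' deposited values are taken as TPM because each library sums to nearly the same total and Salmon reports TPM; the header names no unit. It holds no counts, so the test for normalized values was used. Values were taken as log2(TPM + 1), kept where at least 3 libraries reached 1 TPM, and fitted with limma 3.58.1 (intensity trend, 1 fit of 4 groups) in R 4.3.3. The procedure was tested on simulated data, with each gene drawn independently and no shift of whole libraries. That test therefore does not cover shifts such as that of control replicate 1. TPM keeps no depth.

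The genes and lists were chosen with earlier results of these data known. Named genes were those called, the 3 most abundant of each kind of name, those with the largest rise or fall at day 3 or 5 among genes with a mean of at least 5 TPM, and the textbook cyclins, CDKs, aurora kinases, BUB proteins and SMC subunits; others were chosen after their values were seen. Alternatives were other scalings, filters, pseudocounts and fits, and leaving out libraries. No sequences are shown because none was used.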

Additional observations from a re-analysis of the deposited data

How the results depend on the processing

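Counts of called genes were recomputed under 24 alternatives. At day 3 the count of 4 became 2 with flatworm-hit genes only and when libraries were rescaled with the 2 most abundant transcripts removed, 1 without an intensity trend and with only the libraries compared, and 0 with control replicate 1 and day 3 replicate 2 both left out. At day 5 the count of 2 became 4 under quantile normalization and median-ratio scaling, and 1 without an intensity trend, with a minimum absolute log2 fold change of 1, and with only the libraries compared. The F test count of 4 became 2 under the 3 scalings and with flatworm-hit genes only, and 1 without an intensity trend and with both highest-median libraries left out. For day 3 against day 1, 1 gene was called with flatworm-hit genes only, and for day 5 against day 1, 1 with only the libraries compared and 1 with both highest-median libraries left out; each was the short CDK17 transcript. The cause of these shifts was not tested.

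Leaving out 1 library at a time gave 0 to 1 calls at day 1, 1 to 4 at day 3, 0 to 3 at day 5, 1 to 3 in the F test, 0 to 1 for day 3 against day 1, 0 to 1 for day 5 against day 1, and 0 to 0 for day 5 against day 3. The cell-cycle medians, whose alternatives were chosen after seeing the data, ranged from -0.46 to -0.16 at day 1, from -0.49 to -0.20 at day 3 and from -0.60 to -0.35 at day 5. Rescaling without the 2 most abundant transcripts moved the median of all genes by 0.11 at day 3 and 0.12 at day 5, and quantile normalization by 0.10 at day 5.

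Replicate numbers showed no sign of pairing: same-numbered libraries correlated between -0.15 and 0.15 after group means were removed, and differently numbered ones between -0.14 and 0.13. Removing group means ties the libraries of a group to each other, so this check cannot exclude pairing. With a replicate block, 0, 3 and 2 genes were called at days 1, 3 and 5 and 4 in the F test; the call lost was that of the short CDK17 transcript at day 3 (adjusted p = 0.0511). Of 94 named log2 fold changes, the 6 called kept their sign in every alternative and each lost its call in at least 1, and 4 uncalled passed in at least 1. Signs changed in at least 1 alternative for 37 uncalled values. Depth cannot be weighed, since TPM keeps none.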
